A study of Mus musculus with 6 samples.

Results

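The C-type lectins and killer lectin receptors described here were all genes of the deposited table whose symbol starts with Clec or Klr followed by a letter or digit, leaving out Clec4f. That rule found 41 genes of 21512, with 23 Clec and 18 Klr symbols. The name table held 21 further symbols of this form, Klrg1 among them, for which the deposited table has no row, so they could not be analysed. RNA was sequenced from whole liver of 6 C57BL/6J mice that had 12 weeks of high-fat feeding and CCl4 (carbon tetrachloride, a liver toxin). This regime models MASH, the steatohepatitis of metabolic dysfunction, with fibrosis. Both groups received this diet and toxin. The 3 anti-PD-1 mice were given an antibody against PD-1, an inhibitory receptor of activated T cells, every 3 days, and the 3 isotype control mice were given a control antibody on the same schedule. The treatment label of anti-PD-1 replicates 2 and 3 reads Anti-PD-2 antibody and Anti-PD-3 antibody, while the titles and the series design name PD-1 for all 3, and the titles were followed. The labels give neither age nor sex.

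C-type lectins share a protein fold that in some members binds sugars and in others binds proteins. The killer lectin receptors, encoded in the natural killer gene complex of mouse chromosome 6, let natural killer (NK) cells and some T cells weigh activating against inhibitory signals from the cells they touch. The Clec2 genes of the same complex encode ligands for some of the NKR-P1 receptors among them. The myeloid members, such as Dectin-1, Dectin-2 and Mincle, sense microbes and products of damaged cells on macrophages, monocytes and dendritic cells. In the liver, NK cells and resident macrophages lie along the sinusoids, where the endothelium carries lectins of its own. Of the 41 genes, 35 lie on chromosome 6.

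The results turn on 2 Clec2 genes that differed between the groups in opposite directions, Clec2d (ENSMUSG00000030157) and Clec2h (ENSMUSG00000030364), so their sequences are shown first. In the RefSeq gene order of chromosome 6, Clec2d lies between Clec2e and Cd69, and Clec2h lies between Klrb1a and Klrb1. Over 590 aligned coding bases, 75.1% were identical between the 2 genes. The 120 coding bases in which they are most alike are given below, 5′ to 3′, from the GENCODE M21 transcripts. They run from coding base 77 to 196 in Clec2d and from 101 to 220 in Clec2h, and capitals mark the 16 bases that differ.
Clec2d coding: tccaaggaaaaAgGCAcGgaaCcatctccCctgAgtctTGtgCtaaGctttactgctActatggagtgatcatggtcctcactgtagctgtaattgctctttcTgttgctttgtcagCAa
Clec2h coding: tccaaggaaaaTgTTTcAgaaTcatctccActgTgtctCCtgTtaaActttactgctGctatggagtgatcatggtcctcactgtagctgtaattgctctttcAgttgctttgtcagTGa
The longest coding run that the pair shared without a difference was 45 bases. Of all 50-base words in its transcripts, Clec2d shared 1.98% with any other gene and Clec2h shared 2.15%, mostly with Clec2g for Clec2d and with Clec2i for Clec2h.

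The 250 bases before the start of each gene follow, from RefSeq on GRCm38.p6, an older build than the GRCm39 that the submitters name. For Clec2d (chr6:129180365-129180614, plus strand), capitals mark the match to the core of the interferon-stimulated response element, GAAA and GAAA with 2 bases between them, on either strand. For Clec2h (chr6:128662135-128662384, plus strand) and its neighbour in sequence Clec2e (chr6:129100904-129101153, minus strand), capitals mark the bases without an identical partner in the alignment of the 2. The capitals that open the Clec2h window and close the Clec2e window lie outside the aligned stretch and were not compared.
Clec2d promoter: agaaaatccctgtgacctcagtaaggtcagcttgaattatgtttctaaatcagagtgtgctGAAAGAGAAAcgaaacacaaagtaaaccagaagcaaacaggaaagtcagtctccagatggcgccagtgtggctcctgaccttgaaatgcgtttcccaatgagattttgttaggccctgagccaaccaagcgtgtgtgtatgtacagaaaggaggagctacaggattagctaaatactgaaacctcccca
Clec2h promoter: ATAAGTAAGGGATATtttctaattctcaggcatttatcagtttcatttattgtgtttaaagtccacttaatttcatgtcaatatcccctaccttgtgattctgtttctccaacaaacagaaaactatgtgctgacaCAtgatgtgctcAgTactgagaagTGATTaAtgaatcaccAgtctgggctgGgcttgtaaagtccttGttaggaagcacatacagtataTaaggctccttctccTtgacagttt
Clec2e promoter: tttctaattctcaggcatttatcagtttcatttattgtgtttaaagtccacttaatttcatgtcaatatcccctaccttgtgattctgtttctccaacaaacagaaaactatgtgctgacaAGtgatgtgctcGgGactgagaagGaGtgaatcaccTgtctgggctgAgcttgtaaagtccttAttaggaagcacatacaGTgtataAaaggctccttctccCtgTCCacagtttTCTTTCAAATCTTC
The Clec2h and Clec2e promoters were 95.2% identical over 231 aligned bases. The response element match of Clec2d begins 189 bases before the start. That core was found in 2.98% of all 32851 promoters of this length and in 2 of 42 promoters of the lectin genes, which cover 34 of the 41 genes. The interferon-gamma activated sequence TTCNNNGAA was found in 3 of the 42 and in 7.02% of all promoters, and the NFIL3 site TTANGTAA in 1 of the 42 and in 2.06%. The NF-kB site, GGGA and TTCC with 2 bases between them, and the PU.1 core GAGGAAGT were in none of the 42, against 1.21% and 2.44% of all promoters, with both strands searched for each of the 5 motifs.

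Depth was 15528364 to 20779319 reads per library, recovered from the deposited values. Values below are library-scaled counts (CPM after TMM, a trimmed-mean scaling), written as units. Where no read was counted, up to 3 reads remain possible, or 0.144 to 0.200 units depending on the library (counting error only). Hepatocyte markers were high in every library, with 46646 to 69086 units of Alb. Anti-PD-1 replicate 1 stood apart on immune genes: the 8 T cell markers together had 40.2, 6.52 and 7.71 units in the anti-PD-1 livers, against 3.40, 2.98 and 2.36 units in the isotype control livers. In bulk liver, fewer cells of a type and less RNA per cell cannot be told apart.

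After anti-PD-1, Clec2d was lower and Clec2h was higher in every liver, while of the other 39 lectin genes 1, Klra2, did not overlap between the groups. Of all genes in the table, 6.63% were higher and 8.52% lower without overlap. Clec2d encodes Clr-b, the ligand of the inhibitory receptor NKR-P1B, by which healthy cells hold back NK cells. It had 32.0, 24.8 and 20.8 units in the anti-PD-1 livers, against 144, 73.6 and 63.2 units in the isotype control livers. Every anti-PD-1 value lay below the lowest control value, and isotype control replicate 1 was the highest of the 6. Reads numbered 666, 372 and 402 for anti-PD-1 and 2666, 1360 and 1258 for isotype control. The group means were 25.9 ± 5.67 and 93.6 ± 43.9 units (SD, n = 3 each), a level 3.62-fold lower after anti-PD-1. Clec2d differed by -1.76 ± 0.30 (SE) on the log2 scale, which limma did not call (adjusted p = 0.191). With the replicate number as a block its adjusted p was 0.0298, and DESeq2 on the recovered reads gave 4.81e-06, while edgeR gave 0.202. Without isotype control replicate 1 the log2 fold change was -1.41.

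Clec2h encodes Clr-f, a ligand of the receptor NKR-P1G that is known from gut and kidney epithelium. It had 2.07, 2.80 and 3.88 units in the anti-PD-1 livers, against 0.324, 0.433 and 0.553 units in the isotype control livers. The groups did not overlap, and the lowest anti-PD-1 liver was well above the highest control. Reads numbered 43, 42 and 75 for anti-PD-1 and 6, 8 and 11 for isotype control, so counting error is a sizeable part of the control values. The means were 2.91 ± 0.91 and 0.437 ± 0.115 units (SD, n = 3 each), a level 6.68-fold higher after anti-PD-1. Clec2h reached 1 unit in the anti-PD-1 libraries only, so it passed the filter on low values (at least 1 unit in at least 3 libraries) through the group in which it was high, and its p-values are given from fits of all 21512 genes. The log2 fold change was 1.84 ± 0.28 (SE) and the limma adjusted p 0.132, with 0.0548 under the replicate block, 0.145 by edgeR and 8.13e-05 by DESeq2. With the filter the adjusted p was 0.129 by limma, 0.0588 under the block, 0.159 by edgeR and 4.79e-05 by DESeq2. On the log2(value + 0.5) scale this understates the change, and edgeR gave 2.72.

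Clec2i, which encodes Clr-g, a ligand of NKR-P1F and NKR-P1G, had 2.55, 1.13 and 2.02 units in the anti-PD-1 livers, against 0.971, 1.028 and 1.21 units in the isotype control livers. Anti-PD-1 replicates 1 and 3 lay above the controls and replicate 2 lay among them (log2 fold change 0.57 ± 0.29 (SE), limma adjusted p = 0.498). Clec2e, whose promoter is close to that of Clec2h and which was chosen after its values were seen, stayed at 0.0961, 0 and 0.103 units in the anti-PD-1 livers and 0.108, 0.0541 and 0 units in the isotype control livers, at most 2 reads in any library. Cd69, the early activation marker next to Clec2d, had 2.16, 0.333 and 0.207 units in the anti-PD-1 livers, against 0.540, 0.812 and 0.402 units in the isotype control livers, and its groups overlapped. Of 7 Kupffer cell markers, 4 (Timd4, Vsig4, Marco and Cd163) were lower at an unadjusted limma p under 0.05, against 6.24% of all genes tested, 0 were higher, and 0 passed the adjusted threshold. Timd4, Marco and Cd163 were lower in every anti-PD-1 liver with no overlap, as Clec2d was, against 8.52% of all genes in the table. The other markers Cd5l, Folr2 and Adgre1 overlapped, with log2 fold changes of -0.02, 0.04 and 0.42. Summed over the 7, the marker level was 248, 161 and 148 units in the anti-PD-1 livers, against 327, 132 and 177 units in the isotype control livers, most of it Cd5l and Adgre1. The part of these cells in the Clec2d result was not tested.

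**Figure D1:**
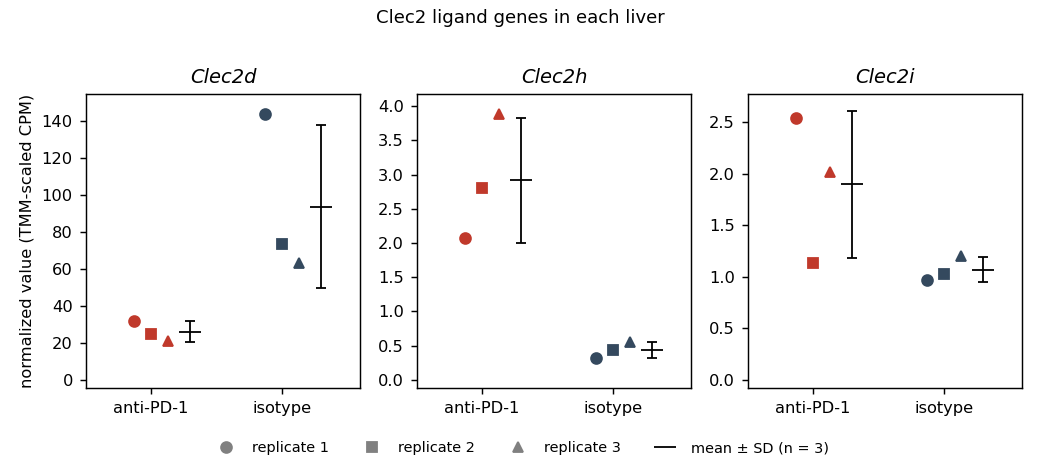
Normalized value (y axis, TMM-scaled CPM, from 0) of 3 Clec2 ligand genes in each liver, anti-PD-1 on the left of each panel and isotype control on the right, with mean ± SD beside the 3 livers. Clec2d is lower in all 3 anti-PD-1 livers (20.8 to 32.0, against 63.2 to 144 in isotype controls), Clec2h is higher in all 3 (2.07 to 3.88, against 0.324 to 0.553), and Clec2i overlaps.

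Counted over the family, 0 lectin genes passed the adjusted limma threshold of 0.05 in either direction, of 19 that passed the filter, Clec2h through its anti-PD-1 livers alone. Over all 13990 genes tested, 0.00715% passed as higher and 0% as lower. At an unadjusted p under 0.05, 1 lectin gene was higher (Clec2h) and 1 lower (Clec2d), against 5.04% and 6.24% of all genes tested. In the fit without a filter, which covers all 41, the same 2 counts were 1 and 1, against 4.45% and 4.96% of 21512 genes, with 0 past the adjusted threshold (0.00465% of all genes higher and 0% lower). edgeR without a filter gave 4 higher (4.86% of all genes) and 1 lower (4.89%) at an unadjusted p under 0.05, and 0 past the adjusted threshold (0.00465% and 0%). With the filter edgeR gave 3 higher (5.45%) and 1 lower (6.15%) at an unadjusted p under 0.05. DESeq2 called 1 higher and 1 lower, Clec2h and Clec2d, where it called 1.05% and 0.779% of all genes, and gave 4 higher (6.25%) and 1 lower (5.18%) at an unadjusted p under 0.05. Its higher call thus rests on a gene that the filter let in through the group where it was high. Run on all genes, DESeq2 called the same 2 genes, where it called 0.572% of all genes higher and 0.363% lower, and gave 5 higher (4.55%) and 1 lower (3.65%) at an unadjusted p under 0.05. With the replicate block 0 were called higher and 1 lower, Clec2d, against 0.193% and 0.0929% of all genes, and 4 were higher at an unadjusted p under 0.05 (Clec2h, Clec7a, Clec12a and Klra2) and 1 lower, against 7.75% and 7.40%. The 2 groups did not overlap for 2 genes that were higher, Clec2h and Klra2, against 6.63% of all genes in the table, and for 1 that was lower, Clec2d, against 8.52%. The limma and overlap counts lie near these background shares.

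Anti-PD-1 replicate 1 held the highest of the 6 values for 26 of the 41 lectin genes (63.4%), against 19.3% of all genes. In 16 of the 41 (39.0%) it was more than 2-fold above each other library, against 3.86% of all genes. With all 6 livers, 31 of 41 log2 fold changes in the unfiltered fit were positive (median 0.16, and 0.00 over all genes). Without anti-PD-1 replicate 1, 17 of 41 were positive (median -0.10, and -0.01 over all genes), while Clec2d and Clec2h moved to -1.92 and 2.03.

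**Figure D2:**
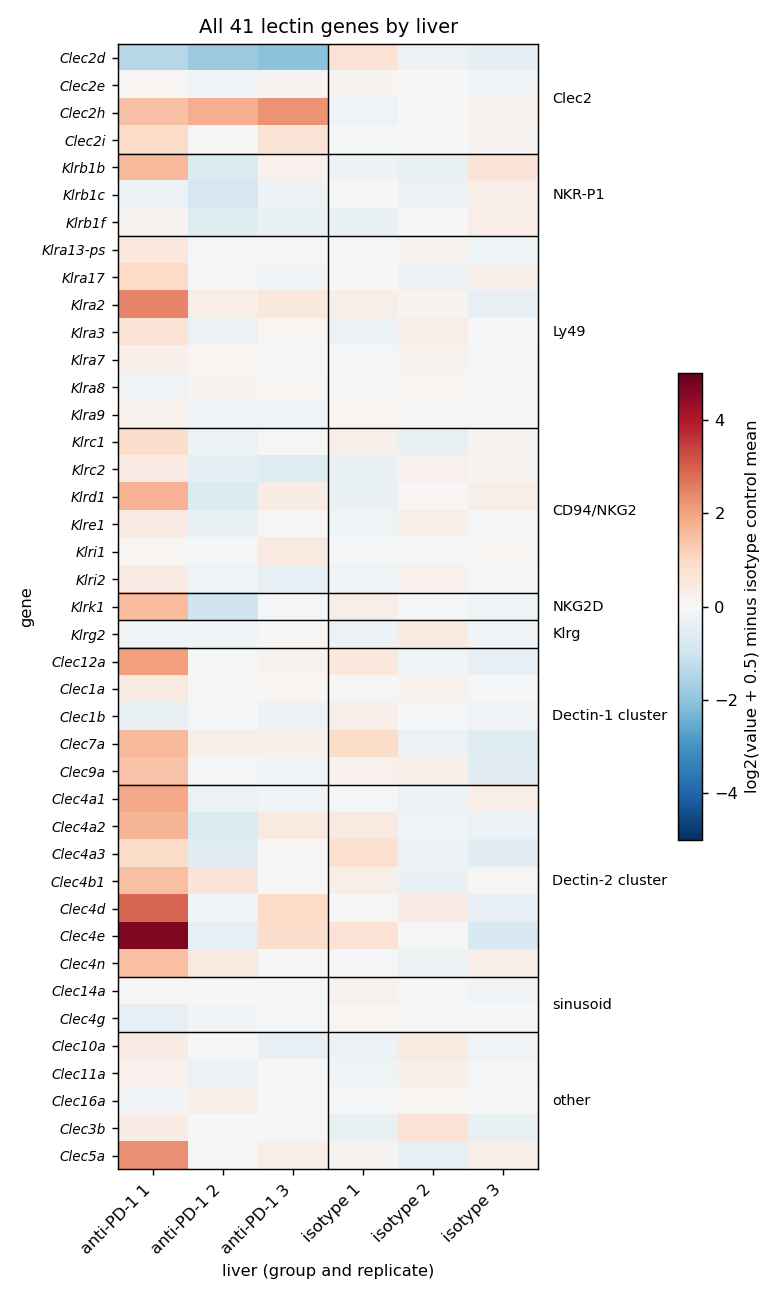
Each row is 1 of the 41 lectin genes, grouped by role, and each column a liver, with anti-PD-1 livers on the left and isotype control livers on the right. Colour gives log2(value + 0.5) minus the isotype control mean. Clec2d is low and Clec2h high in all 3 anti-PD-1 livers, while most other red cells stand in the column of anti-PD-1 replicate 1, which held the highest value for 26 of the 41 genes.

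The 3 NKR-P1 genes with a row, Klrb1b, Klrb1c and Klrb1f, were low in whole liver and did not rise or fall past the test. NKR-P1G, named above as a receptor for the Clec2h and Clec2i products, has no gene among them, so its level is not known here. Klrb1c, which encodes NK1.1, the antigen used to identify NK cells in this strain, had 0.528, 0.200 and 0.569 units in the anti-PD-1 livers, against 0.755, 0.541 and 1.06 units in the isotype control livers. The groups overlapped, with 1 control liver below the highest anti-PD-1 liver (log2 fold change -0.47 ± 0.26 (SE), limma adjusted p = 0.603 without a filter). Klrb1b, the receptor for the Clec2d product, had 1.92, 0 and 0.414 units in the anti-PD-1 livers, against 0.162, 0.108 and 0.754 units in the isotype control livers. It was highest in anti-PD-1 replicate 1 and had 0 reads in anti-PD-1 replicate 2. Klrb1f had 0.336, 0 and 0.103 units in the anti-PD-1 livers, against 0.108, 0.271 and 0.452 units in the isotype control livers. A share of 27.2% of the 50-base words of Klrb1b and 16.98% of those of Klrb1c also occur in other genes, so the split of reads between relatives is uncertain.

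CD94 pairs with NKG2 chains into receptors for the class I molecule Qa-1. Counted together with Klre1, Klri1 and Klri2, which encode other receptor chains of NK cells, the CD94 and NKG2 genes Klrd1, Klrc1 and Klrc2 make 6 genes, of which 5 were highest in anti-PD-1 replicate 1. Klrd1, the CD94 chain, had 2.498, 0.0666 and 0.673 units in the anti-PD-1 livers, against 0.216, 0.433 and 0.603 units in the isotype control livers. Klrc1, the inhibitory NKG2A chain, had 1.20, 0.266 and 0.466 units in the anti-PD-1 livers, against 0.593, 0.216 and 0.503 units in the isotype control livers. For both genes anti-PD-1 replicate 1 was above and anti-PD-1 replicate 2 within or below the control range. Klre1 was at 0.336, 0 and 0.155 units in the anti-PD-1 livers and at 0.0540, 0.271 and 0.101 units in the isotype control livers. Klrc2, the activating NKG2C chain, had 1.15, 0.399 and 0.310 units in the anti-PD-1 livers, against 0.486, 0.920 and 0.855 units in the isotype control livers. Klrc1 shared 38.6% and Klrc2 16.3% of their 50-base words with other genes, mostly with each other. The split of reads between Klrc1 and Klrc2 is thus uncertain. Klrk1, which encodes the activating receptor NKG2D, had 7.78, 0.866 and 2.07 units in the anti-PD-1 livers, against 2.91, 2.06 and 1.91 units in the isotype control livers. Its anti-PD-1 livers held both the highest and the lowest value of the 6 (log2 fold change 0.16 ± 0.59 (SE), limma adjusted p = 0.943, and a log2 fold change of -0.56 without anti-PD-1 replicate 1).

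Many Ly49 receptors (Klra genes) bind classical class I molecules on NK cells, while Klra2, which encodes Ly49B, is known from myeloid cells. Klra2, named after its values were seen, had 13.3, 2.73 and 3.16 units in the anti-PD-1 livers, against 2.64, 2.27 and 1.41 units in the isotype control livers. All 3 anti-PD-1 livers lay above the controls, 2 of them narrowly. Klra2 differed by 1.10 ± 0.53 (SE) on the log2 scale (limma adjusted p = 0.487), and by 0.43 without anti-PD-1 replicate 1. The other 6 Ly49 genes, among them Klra7 (Ly49G) and the virus receptor Klra8 (Ly49H), ranged from 0 to 0.817 units over all livers. Their summed level was 1.97, 0.466 and 0.517 units in the anti-PD-1 livers, against 0.486, 0.812 and 0.553 units in the isotype control livers. Klra17 gave 0.817 of the 1.97 units in anti-PD-1 replicate 1, and which cells carried these genes was not tested. Klra8 shared 33.1%, Klra9 31.5% and Klra3 20.7% of their 50-base words with other genes, so single values of these genes are uncertain.

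Klri1, Klri2 and Klrg2 stayed under 1 unit in all 6 livers, with overlapping groups. Over all 18 Klr genes the summed level was 32.1, 5.59 and 9.26 units in the anti-PD-1 livers, against 8.96, 9.20 and 8.999 units in the isotype control livers. The controls were nearly level, anti-PD-1 replicate 1 was far above them, and anti-PD-1 replicate 2 was below all 3. Of the 18 log2 fold changes, 12 were positive with all livers and 4 without anti-PD-1 replicate 1 (median 0.12 and -0.13). The 8 NK and ILC1 markers together had 25.0, 7.72 and 8.80 units in the anti-PD-1 livers, against 5.61, 5.41 and 4.68 units in the isotype control livers. Of these markers, 4 (Eomes, Gzma, Nkg7 and Itga2) were higher in every anti-PD-1 liver with no overlap, against 6.63% of all genes in the table. The other 4 (Ncr1, Tbx21, Prf1 and Xcl1) overlapped, with log2 fold changes of -0.39, 0.27, 1.17 and -0.45 in the fit without a filter. In that fit 3 of the 8 were higher and 1, Xcl1, was lower at an unadjusted limma p under 0.05. The shares over all genes were 4.45% and 4.96%. Xcl1 had an adjusted limma p of 0.523. Itga2, the integrin chain CD49b, had 4.85, 4.99 and 4.40 units in the anti-PD-1 livers, against 2.48, 3.25 and 2.87 units in the isotype control livers. It was the largest part of the marker sum in every liver except anti-PD-1 replicate 1. The mean log2(value + 0.5) of the 8 markers was 1.20, 0.0726 and 0.253 in the anti-PD-1 livers. Isotype control livers had 0.0615, -0.0794 and -0.190, so anti-PD-1 replicate 2 was barely above the highest control. Ncr1, which encodes the NK receptor NKp46, had 0.192, 0.466 and 0.103 units in the anti-PD-1 livers, against 0.593, 0.379 and 0.452 units in the isotype control livers. The T cell marker Cd8a had 11.7, 2.13 and 2.07 units in the anti-PD-1 livers, against 0.701, 0.487 and 0.352 units in the isotype control livers, with every anti-PD-1 liver above the controls. The part of NK and T cells in the Klr levels was not tested.

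**Figure D3:**
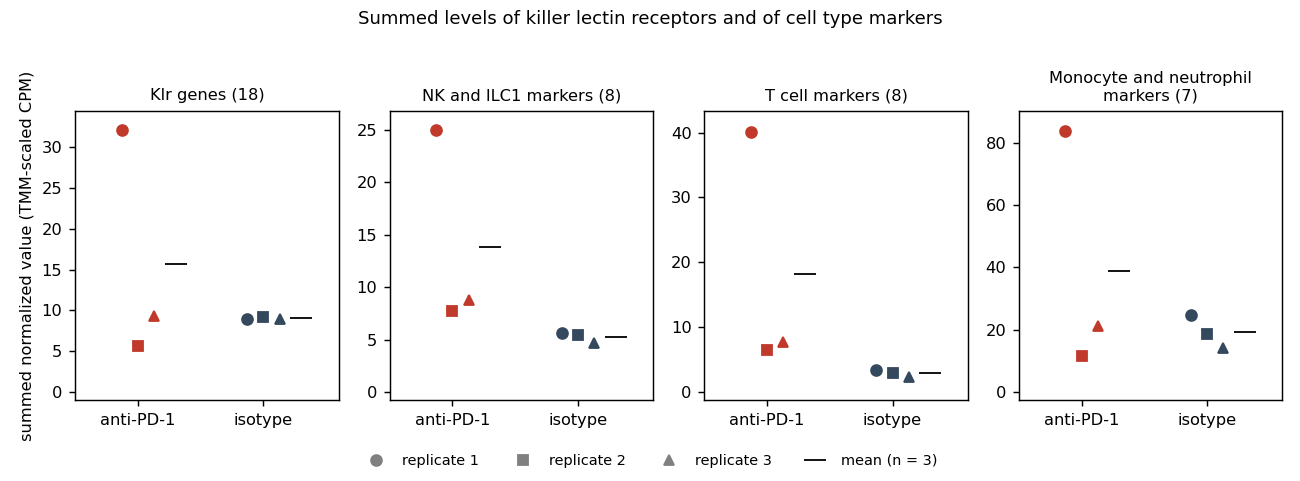
Summed normalized value (y axis, TMM-scaled CPM) of the 18 Klr genes and of 3 marker lists in each liver, anti-PD-1 on the left and isotype control on the right of each panel, with the mean as a bar. The Klr sum is 32.1 in anti-PD-1 replicate 1 and 5.59 and 9.26 in the other 2, against 8.96 to 9.20 in isotype controls. Klra2, known from myeloid cells, gives 13.3, 2.73 and 3.16 of it, against 2.64, 2.27 and 1.41 in isotype controls. The T cell and NK marker sums are above the controls in all 3 anti-PD-1 livers. Of the NK marker sum of 7.72 in anti-PD-1 replicate 2, Itga2 gives 4.99.

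The ligands of these receptors on other cells were then compared. Of 9 ligand genes tested, 1 was higher and 2 were lower at an unadjusted limma p under 0.05, against 5.04% and 6.24% of all genes tested. Of these ligand genes, 0 passed the adjusted threshold. Raet1d, a ligand of NKG2D, had 27.2, 16.4 and 23.7 units in the anti-PD-1 livers, against 35.0, 32.5 and 39.2 units in the isotype control livers. Its close relative Raet1e had 9.80, 7.06 and 9.002 units in the anti-PD-1 livers, against 14.6, 10.7 and 14.9 units in the isotype control livers. Both lay below every control liver (limma adjusted p = 0.279 for Raet1d and 0.313 for Raet1e), and they share 55.8% of the 50-base words of Raet1d, so they are not separate evidence. H2-D1, a classical class I gene that Ly49 receptors read, had 678, 574 and 545 units in the anti-PD-1 livers, against 509, 413 and 383 units in the isotype control livers (limma adjusted p = 0.335). H2-T23, which encodes Qa-1, had 165, 164 and 158 units in the anti-PD-1 livers, against 167, 121 and 131 units in the isotype control livers, and overlapped (limma adjusted p = 0.552).

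The Dectin-1 cluster holds receptors of macrophages, dendritic cells and platelets. Clec7a, which encodes Dectin-1, a receptor for fungal beta-glucan, had 77.1, 31.0 and 29.4 units in the anti-PD-1 livers, against 47.6, 20.1 and 15.9 units in the isotype control livers. Replicate 1 was the highest of its group on both sides, and the groups overlapped through isotype control replicate 1. Clec7a differed by 0.72 ± 0.47 (SE) on the log2 scale (limma adjusted p = 0.604, or 0.0662 under the replicate block). Clec12a, an inhibitory receptor that senses uric acid crystals, had 35.0, 8.39 and 9.26 units in the anti-PD-1 livers, against 12.1, 7.47 and 5.98 units in the isotype control livers (limma adjusted p = 0.622). Clec9a, by which type 1 dendritic cells sense dead cells, had 11.4, 3.73 and 3.62 units in the anti-PD-1 livers, against 4.64, 5.09 and 2.61 units in the isotype control livers (limma adjusted p = 0.756). For Clec12a and Clec9a, only anti-PD-1 replicate 1 lay above all controls. Clec1a, a receptor of endothelium and myeloid cells, had 9.94, 6.86 and 7.502 units in the anti-PD-1 livers, against 6.58, 7.95 and 6.69 units in the isotype control livers. Clec1b, which encodes CLEC-2, the podoplanin receptor of platelets, had 10.04, 12.3 and 11.02 units in the anti-PD-1 livers, against 15.9, 12.5 and 11.7 units in the isotype control livers (log2 fold change -0.25 ± 0.16 (SE), limma adjusted p = 0.590).

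In the Dectin-2 cluster all 7 genes were highest in anti-PD-1 replicate 1, and in 6 of them that liver was more than 2-fold above each other liver. Clec4e, which encodes Mincle, a receptor for mycobacterial glycolipid and for products of dead cells, had 23.2, 0.200 and 1.19 units in the anti-PD-1 livers, against 1.025, 0.433 and 0.0503 units in the isotype control livers. Its partner Clec4d had 7.44, 0.466 and 1.604 units in the anti-PD-1 livers, against 0.540, 0.920 and 0.302 units in the isotype control livers. For both genes anti-PD-1 replicate 3 also lay above every control, and anti-PD-1 replicate 2 lay inside the control range (limma adjusted p = 0.612 for Clec4e, and 0.589 for Clec4d without a filter). Clec4n, which encodes Dectin-2, a receptor for mannose-rich fungal glycans, had 7.83, 3.53 and 2.48 units in the anti-PD-1 livers, against 2.32, 1.95 and 3.22 units in the isotype control livers (limma adjusted p = 0.558). Clec4b1, known from dendritic cells, had 1.68, 0.666 and 0.259 units in the anti-PD-1 livers, against 0.432, 0.108 and 0.302 units in the isotype control livers. The DCIR family genes Clec4a1, Clec4a2 and Clec4a3 had log2 fold changes of 0.50, 0.50 and 0.14, and of -0.20, -0.10 and -0.26 without anti-PD-1 replicate 1. For the cluster as a whole the median log2 fold change was 0.65, and 0.23 without that liver, with a summed level of 63.0, 9.39 and 13.3 units in the anti-PD-1 livers, against 14.8, 9.04 and 10.1 units in the isotype control livers. Monocyte and neutrophil markers (7 genes) moved alongside, with a summed level of 83.9, 11.5 and 21.1 units in the anti-PD-1 livers, against 24.8, 18.7 and 14.1 units in the isotype control livers, and their part in the cluster's levels was not tested.

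**Figure D4:**
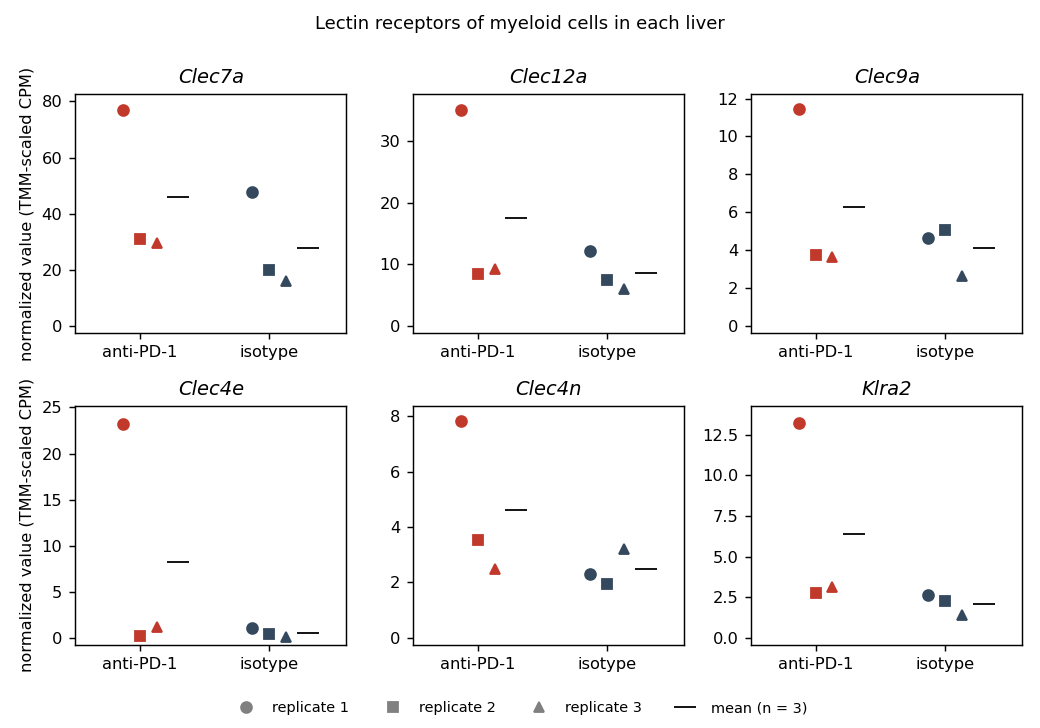
Normalized value (y axis, TMM-scaled CPM) of 6 lectin receptor genes known from myeloid cells in each liver, anti-PD-1 on the left and isotype control on the right of each panel, with the mean as a bar. Anti-PD-1 replicate 1 is the highest liver in every panel (23.2 units of Clec4e, against 1.19 or less in the other 5 livers), and the other 2 anti-PD-1 livers lie in or close to the control range.

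Clec5a, an activating receptor of monocytes and neutrophils outside that cluster, had 3.41, 0.266 and 0.466 units in the anti-PD-1 livers, against 0.378, 0.108 and 0.452 units in the isotype control livers (limma adjusted p = 0.659 without a filter). Clec10a, the galactose-type lectin MGL1 of macrophages, stayed at 0.913, 0.599 and 0.310 units in the anti-PD-1 livers and 0.378, 0.974 and 0.452 units in the isotype control livers. Clec5a was thus high in anti-PD-1 replicate 1 and Clec10a was mixed in both groups.

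Lectins of the sinusoidal endothelium and of the matrix were near level. Clec4g, which encodes LSECtin of liver sinusoidal endothelium, had 25.7, 31.2 and 33.3 units in the anti-PD-1 livers, against 37.1, 33.1 and 34.0 units in the isotype control livers (log2 fold change -0.21 ± 0.12 (SE), limma adjusted p = 0.565). Clec14a, an endothelial protein of vessel sprouting, averaged 24.5 ± 0.29 units in the anti-PD-1 livers and 24.3 ± 3.52 units in the isotype control livers (SD, n = 3 each), with a limma adjusted p of 0.964. The secreted growth factor Clec11a averaged 1.81 ± 0.41 units in the anti-PD-1 livers and 1.85 ± 0.47 units in the isotype control livers (SD, n = 3 each). Clec16a, a regulator of endosomes and mitochondrial turnover, averaged 24.5 ± 3.52 units in the anti-PD-1 livers and 23.8 ± 1.31 units in the isotype control livers (SD, n = 3 each). Clec3b, the plasminogen-binding tetranectin, was at 0.336, 0.133 and 0.155 units in the anti-PD-1 livers and at 0, 0.541 and 0 units in the isotype control livers. None of these 3 passed the test (limma adjusted p = 0.980 for Clec11a, 0.945 for Clec16a and 0.903 for Clec3b without a filter). The 6 sinusoidal endothelium markers had a summed level of 391, 431 and 422 units in the anti-PD-1 livers, against 416, 406 and 400 units in the isotype control livers.

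**Figure D5:**
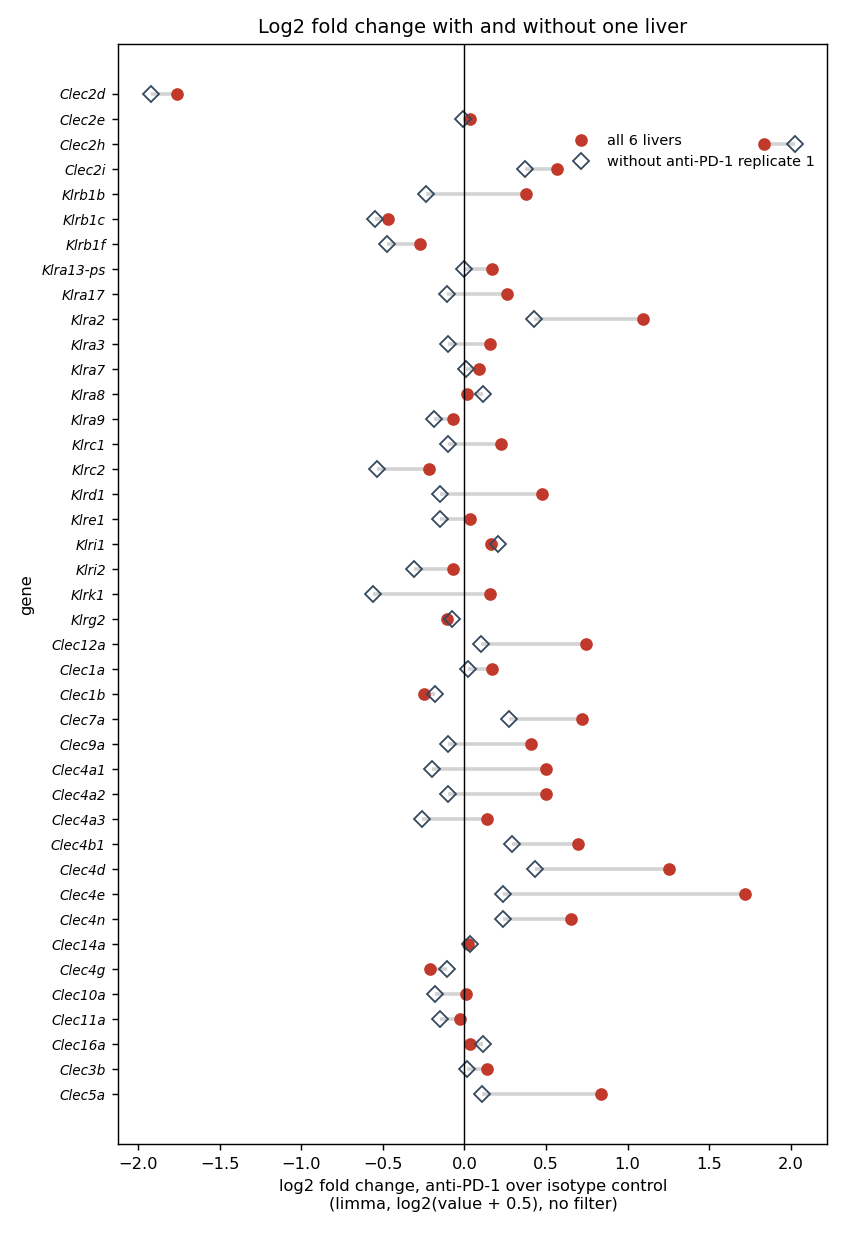
Log2 fold change of anti-PD-1 over isotype control (x axis, limma without a filter) for each of the 41 lectin genes, from all 6 livers (filled circles) and without anti-PD-1 replicate 1 (open diamonds). With all livers 31 of 41 values are positive and without that liver 17 of 41, of the Klr genes 12 and 4 of 18, and of the Dectin-2 cluster 7 and 4 of 7. Clec2d is at -1.76 with all livers and -1.92 without that liver, and Clec2h at 1.84 and 2.03.

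Among the adaptors and kinases through which these receptors signal, 13 of 19 genes passed the filter, and 0 passed the adjusted threshold. At an unadjusted limma p under 0.05, 2 were higher and 0 lower, against 5.04% and 6.24% of all genes tested. Under the replicate block 6 were higher (Tyrobp, Syk, Zap70, Vav1, Vav3 and Inpp5d), against 7.75% of all genes tested, with 0 past the adjusted threshold. Leaving out each library in turn gave 0 to 5 higher in limma, where 457 to 1103 of all genes tested were higher. Zap70, the kinase of T and NK cell receptors, had 12.2, 13.5 and 18.5 units in the anti-PD-1 livers, against 10.7, 10.6 and 8.70 units in the isotype control livers (limma adjusted p = 0.364). Inpp5d, the phosphatase SHIP1 of inhibitory receptors, had 32.6, 15.5 and 16.5 units in the anti-PD-1 livers, against 15.4, 12.0 and 10.4 units in the isotype control livers (limma adjusted p = 0.431). Of the 19 genes, 4 (Zap70, Inpp5d, Vav3 and Lat) were higher with no overlap and 0 were lower. The shares over all genes in the table were 6.63% and 8.52%. The margin was narrow for Inpp5d in anti-PD-1 replicate 2 and for Lat in anti-PD-1 replicate 3 (0.673 units, against 0.649 in the highest control). Tyrobp, which encodes the adaptor DAP12, had 45.9, 11.9 and 16.6 units in the anti-PD-1 livers, against 24.01, 10.8 and 11.9 units in the isotype control livers. Fcer1g, the adaptor of Dectin-2 and Mincle, had 42.7, 9.59 and 12.2 units in the anti-PD-1 livers, against 11.9, 9.74 and 7.34 units in the isotype control livers, and both genes overlapped. Hcst, the adaptor of NKG2D, was at 0.207 units or less in 5 of the 6 livers and at 0.768 in anti-PD-1 replicate 1.

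Of the other C-type lectins outside the 41, 21 were tested, with 0 past the adjusted threshold. At an unadjusted limma p under 0.05, 2 were higher and 0 lower, against 5.04% and 6.24% of all genes tested. Cd207, which encodes langerin, had 9.41, 4.99 and 6.05 units in the anti-PD-1 livers, against 2.81, 4.06 and 4.17 units in the isotype control livers, with no overlap (limma adjusted p = 0.348). Cd302 had 159, 186 and 229 units in the anti-PD-1 livers, against 150, 128 and 161 units in the isotype control livers, with anti-PD-1 replicate 1 inside the control range (limma adjusted p = 0.421). Mrc1, the mannose receptor of macrophages and sinusoidal endothelium, averaged 108 ± 16.8 units in the anti-PD-1 livers and 104 ± 9.15 units in the isotype control livers (SD, n = 3 each; limma adjusted p = 0.898).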

How the data were processed

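The authors deposited 1 normalized signal per gene and library. Tools and build named in the submitters' processing notes, without role or order, are RSEM 1.3.0, Bowtie2, edgeR, Trimmomatic 0.38 and GRCm39, and per the labels' protocols libraries were ribosomal RNA-depleted and directional. Divided by the step of its library, 100% of deposited entries came out whole within 0.001 read, so whole reads were recovered. They may be observed reads or rounded estimates. TMM factors recomputed with edgeR were the same as those implied by the columns. Symbols matched 21407 of 21512 identifiers.

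The main test was limma 3.58.1 (R 4.3.3) with an intensity trend on log2(value + 0.5), two-sided, Benjamini-Hochberg adjusted over the 13990 genes that reached 1 unit in 3 or more libraries, threshold 0.05. A fit of all 21512 genes covered lectin genes under the filter. Alternatives were pseudocounts of 0.1 and 2, a filter of 5 units, a filter on the mean over libraries, no filter, total count scaling, edgeR 4.0.16 and DESeq2 1.42.0 with and without the filter, the replicate block and leaving out each library. The limma fits with and without the filter and the filtered edgeR and DESeq2 fits were tested on simulated counts. Exact permutation of 3 against 3 cannot give a two-sided p under 0.1.

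Replicates 1 to 3 follow the order of the mouse numbers in the sample titles within each group, and the titles name no pairs. Same-numbered libraries deviated together from their group means (r = 0.149, 0.135 and 0.251 across genes, each over 0.1), so the numbers were taken to pair the mice. The other pairs had r of -0.219 to 0.063. Deviations from a mean of 3 libraries sum to 0, so r cannot be positive for all pairs. How often unpaired mice would pass the limit of 0.1 was not tested. The labels do not say what the number marks. The pairing was thus inferred from these same values, and the results under the replicate block depend on it. No label says how the samples of a group were housed or processed, so p-values measure only the spread between these samples.

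Named genes were the lectin genes with an unadjusted p under 0.05, a list by role, and Klra2 and Clec2e, added after their values were seen. The lectin genes and lists were chosen with earlier results of these data known. Sequences were aligned with Biopython 1.88.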

Additional observations from a re-analysis of the deposited data

How the results depend on the processing

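With 3 livers a group, limits come from spread between mice and, for 22 lectin genes under the filter, from few reads. Of the alternative values for counts and medians, 209 stayed within 1.5 times the reported count or within 1 SD between livers of the reported median, and 63 moved further. Of those for single genes, 38 changed sign. Past the adjusted threshold, DESeq2 gave 1 lectin gene higher and 1 lower with and without the filter, and the replicate block (pairing by number) gave 1 lower with and without the filter, against 0; it changed no other adjusted call of a lectin gene. At an unadjusted p under 0.05, lectin genes counted as higher (1 as reported) were 0 with a filter of 5, 4 with the replicate block, 3 by edgeR, 4 by DESeq2, and without a filter 4 by edgeR and 5 by DESeq2, and the lower count was 2 under total count scaling, with or without the filter. Against 1 in limma without a filter, the block gave 4, edgeR 4 and DESeq2 5. Over all 21512 genes limma gave 958 higher, the block 1359, edgeR 1045 and DESeq2 978. Total count scaling gave 1 non-overlapping gene higher and 2 lower. The median over all 41 was 0.58 by edgeR and 0.59 by DESeq2. Adaptors and kinases counted as higher were 1 under total count scaling, 6 with the block, 5 by DESeq2, 6 by edgeR and 6 by DESeq2 without a filter, and 1 without a filter and without anti-PD-1 replicate 1. Over all genes passing the filter, 629 were higher under total count scaling, 1084 with the block and 874 by DESeq2. Ligands counted as higher were 3 by DESeq2 and 2 without the filter. Other C-type lectins counted as higher were 1 with a filter of 5 and 4 with the block, and as lower 1 without a filter and without anti-PD-1 replicate 1. Leaving out each library in turn gave 0 to 4 lectin genes higher with the filter and 1 to 7 without. Over all genes the same fits gave 457 to 1103 higher with the filter and 688 to 1402 without. The largest of these counts came without anti-PD-1 replicate 1. With a library left out, 2 to 8 lectin genes were higher and 1 to 4 lower without overlap. The share of all genes without overlap was not computed there, and 3 livers against 2 separate more easily than 3 against 3. Medians were -0.10 to 0.28 over all 41 and -0.10 to 0.70 over those tested. Adaptors were 0 to 5 higher, ligands 0 to 2 higher, and other lectins 0 to 4 higher and 0 to 1 lower. Log2 fold changes that changed sign ranged over -0.18 to 0.24 for Clec10a, -0.15 to 0.13 for Clec11a, -0.043 to 0.14 for Clec14a, -0.077 to 0.11 for Clec16a, -0.040 to 0.12 for Clec2e, -0.038 to 0.49 for Clec3b, -0.20 to 0.89 for Clec4a1, -0.10 to 1.09 for Clec4a2, -0.26 to 0.55 for Clec4a3, -0.10 to 0.67 for Clec9a, -0.054 to 0.12 for Klra8, -0.24 to 0.90 for Klrb1b, -0.10 to 0.47 for Klrc1, -0.15 to 1.05 for Klrd1, -0.15 to 0.22 for Klre1 and -0.56 to 0.74 for Klrk1. With a pseudocount of 0.1, Klra8 was at -0.0073 and Klre1 at -0.013. Total count scaling and DESeq2 without the filter were added after seeing the data. The cause of these shifts was not tested. Clec2d kept its sign in every setting (-1.99 to -1.41 over left-out libraries); Clec2h fell under the filter without any 1 anti-PD-1 library.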
